A study of Mus musculus and Rattus norvegicus with 51 samples.

Results

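The 10 genes described here are interleukin-6 (IL-6) family cytokines, their receptors, and the signalling genes STAT3 and SOCS3: Il6, Il11, Lif, Osm, Clcf1, Il6ra, Il6st, Osmr, Stat3 and Socs3. They were taken as a named list, and they are 10 of the 28587 distinct gene symbols in the 3 count tables of the series. All 10 were in every table, with the rat receptor written Il6r (called Il6ra below). A filter on low counts kept 9 of them in the cells, where Osm did not pass, and 7 in each liver table, where Il6, Il11 and Osm did not pass.

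IL-6 family cytokines share the receptor chain gp130, the product of Il6st, which works together with further receptor chains. The occupied receptor activates Janus kinases, which phosphorylate STAT3, and STAT3 in the nucleus raises transcription of its targets. One of them, Socs3, encodes a feedback inhibitor of the same receptor. In liver the pathway is known for driving acute phase proteins in hepatocytes and for its part in regeneration.

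The series concerns HMGB1, a nuclear protein that stressed and dying cells release, in liver fibrosis. HSC-T6, a rat hepatic stellate cell line, was given BSA (a carrier protein control), [H] HMGB1, [O] HMGB1 or [SO3] HMGB1 for 6 h, with 3 libraries each. Whole livers of male wild-type mice were taken at 4 weeks of CCl4, a hepatotoxin, with BSA, [H] HMGB1 or [O] HMGB1 (called fibrosis), or after 1 week of regression with BSA, [SO3] HMGB1 or an HMGB1 antibody (called resolution), with 3 libraries each. A further set of male livers, taken at 4 weeks, had MO or CCl4 in wild-type mice, in Hmgb1ΔHepΔMye mice with WT HMGB1, and in Hmgb1ΔHepΔMye mice with Δ[O] HMGB1, with 3 libraries for each MO group and 4 for each CCl4 group. The labels do not spell out MO, the bracketed forms or Δ[O]. The deposited name of this last set also gives AAV8, a viral vector, without saying which livers received it. Where these Hmgb1ΔHepΔMye livers are compared with the wild type, genotype, supplied HMGB1 and any vector cannot be told apart. Nor do they tie each numbered library to its own culture or animal, so the p-values here reflect library-to-library spread that could be technical.

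Counts on genes numbered about 11752700 to 16981300 per cell library, 8355710 to 16327100 per fibrosis or resolution liver and 22598600 to 39323100 per liver of the MO and CCl4 set. Of the 8 stellate cell and myofibroblast markers, Col1a1 stood at 27474 to 41840 CPM (counts scaled by library size) in the cell libraries, and Lrat, which marks quiescent stellate cells, was at 0 in all 12. Col1a2 stood far lower than Col1a1, at 42.3 to 78.4 CPM, and Acta2 at 578 to 1172 CPM. Reln was at 0 with [O] and [SO3] HMGB1. Neutrophil markers summed to at most 0.489 CPM there and hepatocyte markers to at most 2.22 CPM. Hmgb1 itself stood at 63.9 to 74.7 CPM in the Hmgb1ΔHepΔMye livers with WT HMGB1 and MO and at 72.8 to 77.3 CPM in wild-type livers with MO. It stood at 131 to 215 CPM with Δ[O] HMGB1 and MO. With CCl4, Hmgb1 stood at 61.7 to 92.2 CPM with Δ[O] HMGB1, 44.9 to 74.1 CPM with WT HMGB1 and 57.2 to 107 CPM in the wild type. Counts from the liver's own gene and from the supplied HMGB1 cannot be told apart here.

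In mouse, Lif (chr11:4257568-4272514) lies 16541 bases from the end of Osm (chr11:4236785-4241026), on the same chromosome as Stat3 and Socs3. RefSeq promoter sequences of build GRCm38.p6 matched 8 of the 10 genes, and Osm and Clcf1 had no entry. The 250 bases before the start sites of Il6, Lif and Socs3 are shown. In the cells, Il6 and Lif rose with both [O] and [SO3] HMGB1, while Socs3 rose mainly with [O]. Il6ra, Il6st, Osmr and Stat3, whose windows are not shown, also rose and differed between the forms. The sequences are mouse, and the cells are rat. Capitals mark matches, on either strand, to the AP-1 motif TGANTCA, the NF-kB consensus, or the STAT motif TTCNNNGAA.
Il6, chr5:30012864-30013113, plus strand: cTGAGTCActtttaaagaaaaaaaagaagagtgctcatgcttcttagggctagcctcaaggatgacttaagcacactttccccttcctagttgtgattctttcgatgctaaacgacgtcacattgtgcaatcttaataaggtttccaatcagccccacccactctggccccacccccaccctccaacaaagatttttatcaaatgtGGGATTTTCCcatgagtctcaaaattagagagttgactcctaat
Lif, chr11:4257318-4257567, plus strand: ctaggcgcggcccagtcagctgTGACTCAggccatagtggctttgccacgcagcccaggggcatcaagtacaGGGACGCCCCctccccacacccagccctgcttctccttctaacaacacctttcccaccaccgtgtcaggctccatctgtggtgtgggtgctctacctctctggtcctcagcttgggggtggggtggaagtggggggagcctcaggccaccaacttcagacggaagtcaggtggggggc
Socs3, chr11:117969367-117969616, minus strand: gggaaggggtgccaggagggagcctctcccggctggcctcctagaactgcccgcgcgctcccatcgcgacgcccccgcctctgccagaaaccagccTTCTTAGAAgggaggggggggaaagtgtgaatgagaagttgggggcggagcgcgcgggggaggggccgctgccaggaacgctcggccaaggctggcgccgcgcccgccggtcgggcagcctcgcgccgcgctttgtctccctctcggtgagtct
Counting back from the start site, Il6 had an AP-1 match at -249 to -243 and an NF-kB match at -44 to -35. Lif had an AP-1 match at -228 to -222 and an NF-kB match at -178 to -169. Socs3 had a STAT match at -154 to -146, counted from a start site that lies within the annotated gene (chr11:117966079-117970336). No match overlapped another. Of the other members with an entry, 1 of the 2 Il11 windows held an AP-1 match and the rest held none of the 3 motifs. Among 32851 windows of this length, 7.02% held the STAT motif, 6.75% the AP-1 motif and 7.25% the NF-kB consensus. A match is a run of letters and was not tested as a binding site.

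In HSC-T6 cells, [O] and [SO3] HMGB1 each raised Il6 and Lif, while the receptor chains, Stat3 and Socs3 rose further with [O]. With [H] HMGB1 no member passed the test. Against BSA, edgeR's quasi-likelihood test called 7 of the 9 tested members higher with [O] and 8 of 9 higher with [SO3], all of these at a Benjamini-Hochberg adjusted p under 0.05 over all genes. Over all genes tested, 23.7% were higher with [O] and 31.1% with [SO3]. The median log2 fold change was 1.52 over the 9 members and -0.01 over all tested genes with [O], and 0.54 against -0.02 with [SO3].

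Il6 encodes the cytokine that names the family. Its level was 2.99, 2.63 and 2.48 CPM in the BSA libraries and 2.67, 3.41 and 2.91 CPM with [H] HMGB1. It was 50.8, 48.6 and 51.0 CPM with [O] HMGB1 and 76.4, 72.8 and 68.0 CPM with [SO3] HMGB1. The BSA and [H] libraries overlapped, and every [SO3] library lay above every [O] library. Il6 was higher than BSA by 4.20 (log2, SE 0.10, adjusted p 8.7e-22) with [O] and by 4.73 (SE 0.09, adjusted p 4.7e-23) with [SO3]. The direct comparison put [SO3] above [O] by 0.53 (log2, SE 0.05, adjusted p 5.7e-09).

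Lif encodes leukaemia inhibitory factor, which signals through gp130 and the LIF receptor. Its level was 8.84, 8.45 and 8.03 CPM with BSA, 7.505, 7.55 and 7.93 CPM with [H], 23.7, 19.7 and 21.03 CPM with [O], and 25.7, 22.6 and 22.3 CPM with [SO3]. The [O] and [SO3] libraries overlapped and stood above all 6 others. Lif rose by 1.34 (log2, SE 0.09) with [O] and by 1.47 (SE 0.09) with [SO3]. [SO3] against [O] gave 0.13 (95% confidence interval -0.03 to 0.28, adjusted p 0.15), and leaving out [O] library 1 brought this past the threshold at 0.21 (adjusted p 0.035).

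Clcf1 encodes cardiotrophin-like cytokine factor 1, another gp130 ligand, and rose with [SO3] alone among the 3 forms against BSA. Its level was 24.5, 21.3 and 20.0 CPM with BSA, 19.9, 19.3 and 21.5 CPM with [O], and 34.7, 36.1 and 35.1 CPM with [SO3]. The BSA and [O] libraries overlapped, and the [SO3] libraries stood above them all. The difference was 0.68 (log2, SE 0.07, adjusted p 1.2e-08) for [SO3] against BSA, -0.12 (95% interval -0.29 to 0.04, adjusted p 0.21) for [O] against BSA, and 0.80 (SE 0.07, adjusted p 5.0e-10) for [SO3] against [O].

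The other cytokines were near the limit of these libraries. Il11 stood at 1.10 to 1.96 CPM over all 12 libraries, 19 to 32 counts each, and passed no test. Its difference from BSA was -0.08 (95% interval -0.54 to 0.38) with [O] and -0.37 (-0.84 to 0.10) with [SO3]. Osm, which encodes oncostatin M, had 0 to 6 counts in any cell library and was not tested.

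**Figure D1:**
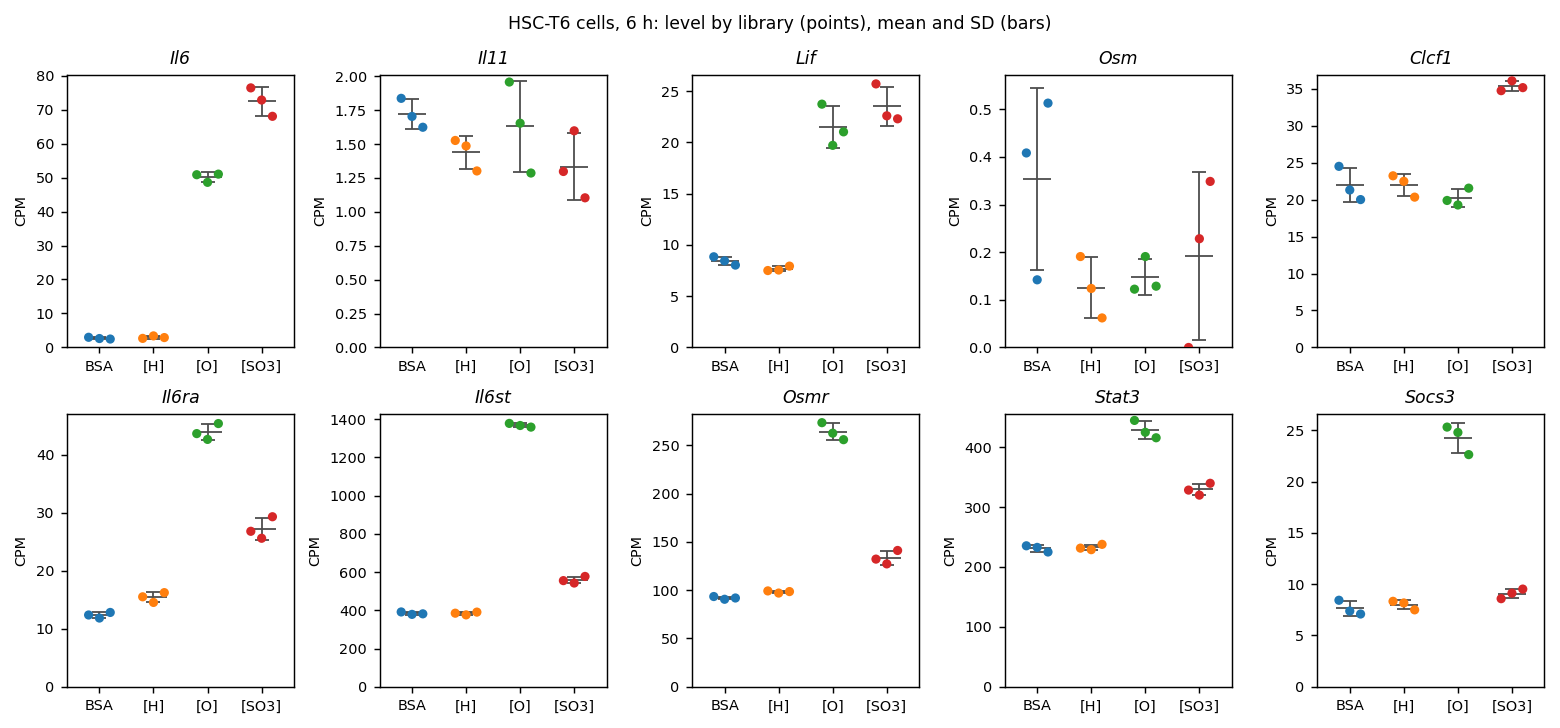
Levels of the 10 members in HSC-T6 cells in CPM (y axis, linear, from 0) by treatment (x axis), with 3 libraries a group as points and bars for mean and SD. Il6 and Lif stand high with [O] and [SO3], Clcf1 with [SO3], and Il6st, Osmr and Socs3 highest with [O], where Socs3 lies between 22.6 and 25.3 CPM.

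The receptor chains had the opposite order of the 2 forms. Il6st was at 391, 379 and 381 CPM with BSA, 385, 376 and 390 CPM with [H], 1377, 1366 and 1358 CPM with [O], and 555, 543 and 577 CPM with [SO3]. The BSA and [H] libraries overlapped, and the [O], [SO3] and control ranges were separate. Il6st rose by 1.83 (log2, SE 0.03) with [O] and by 0.54 (SE 0.03) with [SO3], and [SO3] was lower than [O] by 1.29 on the log2 scale (-1.29, SE 0.03, adjusted p 1.4e-20).

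Osmr encodes the oncostatin M receptor chain that pairs with gp130. It stood at 93.5, 90.6 and 92.0 CPM with BSA, 274, 263 and 256 CPM with [O], and 132, 127 and 141 CPM with [SO3]. The 3 groups did not overlap. It rose by 1.52 (log2, SE 0.04) with [O] and 0.54 (SE 0.05) with [SO3], and [SO3] against [O] gave -0.98 (SE 0.04, adjusted p 4.6e-16).

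Il6ra encodes the chain that binds IL-6 itself. It stood at 12.4, 11.9 and 12.8 CPM with BSA, 15.5, 14.5 and 16.2 CPM with [H], 43.7, 42.7 and 45.4 CPM with [O], and 26.8, 25.6 and 29.3 CPM with [SO3]. The 4 groups did not overlap. It rose by 1.83 (log2, SE 0.07) with [O] and 1.14 (SE 0.08) with [SO3], and [SO3] against [O] gave -0.69 (SE 0.06, adjusted p 4.7e-10).

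Stat3, the transcription factor of the pathway, stood at 235, 233 and 225 CPM with BSA, 445, 425 and 416 CPM with [O], and 328, 320 and 340 CPM with [SO3]. These groups did not overlap. The rise was 0.89 (log2, SE 0.04) with [O] and 0.51 (SE 0.04) with [SO3], with -0.38 (SE 0.04, adjusted p 4.1e-09) between them.

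Socs3, the feedback inhibitor, rose with [O] HMGB1. It stood at 8.44, 7.38 and 7.09 CPM with BSA, 8.33, 8.17 and 7.499 CPM with [H], 25.3, 24.8 and 22.6 CPM with [O], and 8.59, 9.13 and 9.52 CPM with [SO3]. The [SO3] libraries lay just above BSA and far below [O]. Socs3 rose by 1.66 (log2, SE 0.09, adjusted p 4.7e-14) with [O]. With [SO3] the difference was 0.24 (SE 0.10, adjusted p 0.041), and the call was lost in 7 of 11 alternative analyses, with adjusted p up to 0.13. It was lost without BSA library 2 (0.12) or 3 (0.13) and without [SO3] library 2 (0.078) or 3 (0.13). [SO3] against [O] gave -1.42 (SE 0.08, adjusted p 1.7e-13).

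Between the 2 forms directly, [SO3] was higher than [O] for 2 of the 9 tested members, Il6 and Clcf1, and lower for 5, Il6ra, Il6st, Osmr, Stat3 and Socs3. Over all genes, 29.1% were higher and 30.0% lower. With [H] against BSA, edgeR called 0 of 9 members and 0.799% of all genes. At an unadjusted p under 0.05 it had 2 members, Il6ra and Osmr, and DESeq2 called 0. Il6ra with [H] was 0.32 above BSA (log2, SE 0.08, adjusted p 0.068), and it passed without the low-count filter (adjusted p 0.042) and with only those groups in the fit (0.036). Against [H], edgeR called 7 members higher with [O] (background 21.9%) and 7 with [SO3] (background 31.5%), and Socs3 with [SO3] against [H] was 0.18 (95% interval -0.02 to 0.39).

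**Figure D2:**
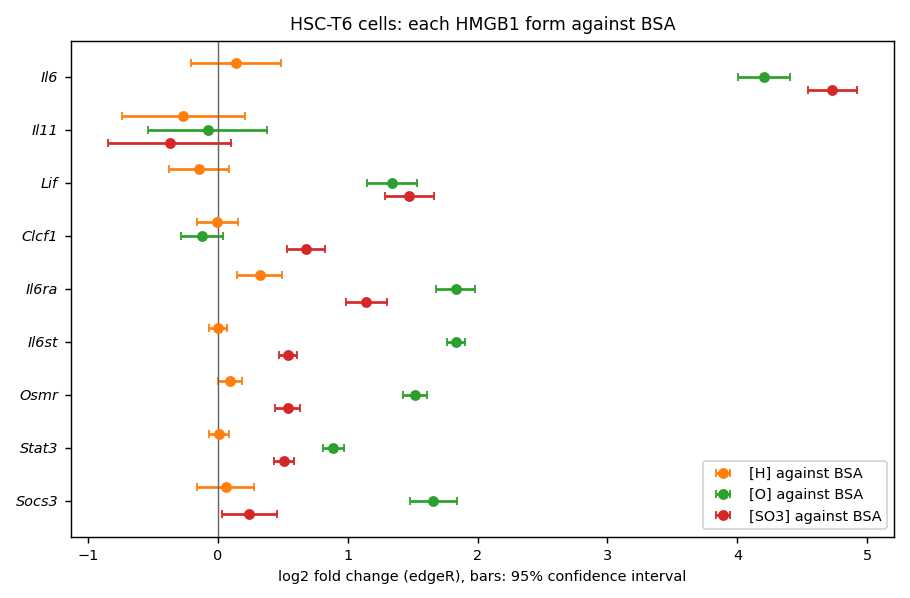
Log2 fold changes of the 9 tested members in HSC-T6 cells against BSA (x axis; edgeR) with 95% confidence intervals, for [H], [O] and [SO3] HMGB1. Il6 lies at 4.20 with [O] and 4.73 with [SO3], Il6st at 1.83 and 0.54, and Socs3 at 1.66 and 0.24, and all [H] values lie between -0.26 and 0.32.

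Levels of the members across the 12 cell libraries were also correlated, as a description, since the libraries share 4 treatments and their depth. The log2 level of Lif had a Pearson r of 0.99 with Il6. With Socs3, r was 0.98 for Il6st, 0.97 for Osmr, 0.89 for Stat3, 0.87 for Il6ra, 0.61 for Il6, 0.20 for Il11 and -0.32 for Clcf1. With Il6, r was 0.89 for both Stat3 and Il6ra, 0.51 for Clcf1 and -0.27 for Il11. Of 10139 other tested genes, those most like Socs3 were Cx3cl1 (fractalkine, a membrane-bound chemokine; r = 0.998), H6pd (0.994), Mras (0.994), Stx6 (0.993) and Sipa1l2 (0.993). Those most like Il6 were Tsku (0.998), Abcb1b (0.997), Plk2 (0.996), Gfpt2 (0.995) and Mt2A, a metallothionein (0.995).

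Of 12 other family cytokines and receptors, 7 were tested in the cells, with 1 higher and 3 lower with [O], and 1 higher and 4 lower with [SO3]. Over all genes, 20.2% were lower with [O] and 32.2% with [SO3], beside the 23.7% and 31.1% that were higher. Ebi3, a subunit shared by IL-27 and IL-35, rose from 0.289 ± 0.102 CPM (SD, n = 3) to 3.13 ± 0.318 CPM with [O], by 3.37 on the log2 scale, and was 0.297 ± 0.160 CPM with [SO3]. Lifr, the LIF receptor chain, was lower by 0.24 on the log2 scale with [O] (-0.24) and by 0.68 with [SO3] (-0.68). Il11ra1, the IL-11 receptor chain, changed by -0.42 and -0.55. Cntf, ciliary neurotrophic factor, rose by 0.90 with [SO3].

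Of 24 kinases, STATs and negative regulators, 21 were tested. With [O], 9 were higher and 3 lower (all genes 23.7% and 20.2%), and with [SO3], 10 were higher and 6 lower (31.1% and 32.2%). Jak2, a kinase bound to gp130 and other receptors, stood at 57.7 ± 4.25 CPM with BSA, 446 ± 2.72 CPM with [O] and 66.5 ± 0.422 CPM with [SO3] (SD, n = 3 each). It rose by 2.96 on the log2 scale with [O] (adjusted p 3.4e-25), and [SO3] against [O] gave -2.75. Cish, a feedback inhibitor best known downstream of STAT5, rose from 2.31 ± 0.342 CPM to 34.5 ± 3.08 CPM with [O] and 10.3 ± 0.807 CPM with [SO3], by 3.89 and 2.14 on the log2 scale. Ptpn2, a phosphatase of the pathway, rose by 0.51 with [O], and Stat2 by 0.71. With [SO3], Socs1, another feedback inhibitor, changed by -0.81, while Socs4 rose by 0.54.

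Of 24 genes listed as STAT3 targets, 21 were tested, and 16 were higher and 2 lower with either form against BSA, beside the shares over all genes just given. Many of them are also known targets of NF-kB or AP-1, which these counts do not separate from STAT3. The median log2 change over the 21 was 0.79 with [O] and 0.62 with [SO3]. Between the forms, 7 were higher and 11 lower with [SO3] than with [O], with a median of -0.31. Bcl3, an NF-kB cofactor, went from 1.36 ± 0.309 CPM with BSA to 48.9 ± 3.89 CPM with [O] and 8.71 ± 0.562 CPM with [SO3] (SD, n = 3 each), and [SO3] against [O] gave -2.49. Nfkbiz, another NF-kB cofactor, rose by 4.56 with [O] and 3.49 with [SO3]. Cebpd, a transcription factor of the acute phase, rose by 3.71 with [O], and [SO3] against [O] gave -2.20. Steap4, a metalloreductase, rose by 4.90 with [O], from 0.0965 ± 0.103 CPM (4 counts in all) to 3.19 ± 0.251 CPM, and stood at 0.0787 ± 0.0883 CPM with [SO3]. Icam1, an adhesion molecule, was 1618 ± 17.2 CPM with [O] and 341 ± 3.18 CPM with [SO3], a difference of -2.25. Ier3, an immediate early gene, rose by 2.75 and Junb, an AP-1 subunit, by 1.64 with [SO3].

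**Figure D3:**
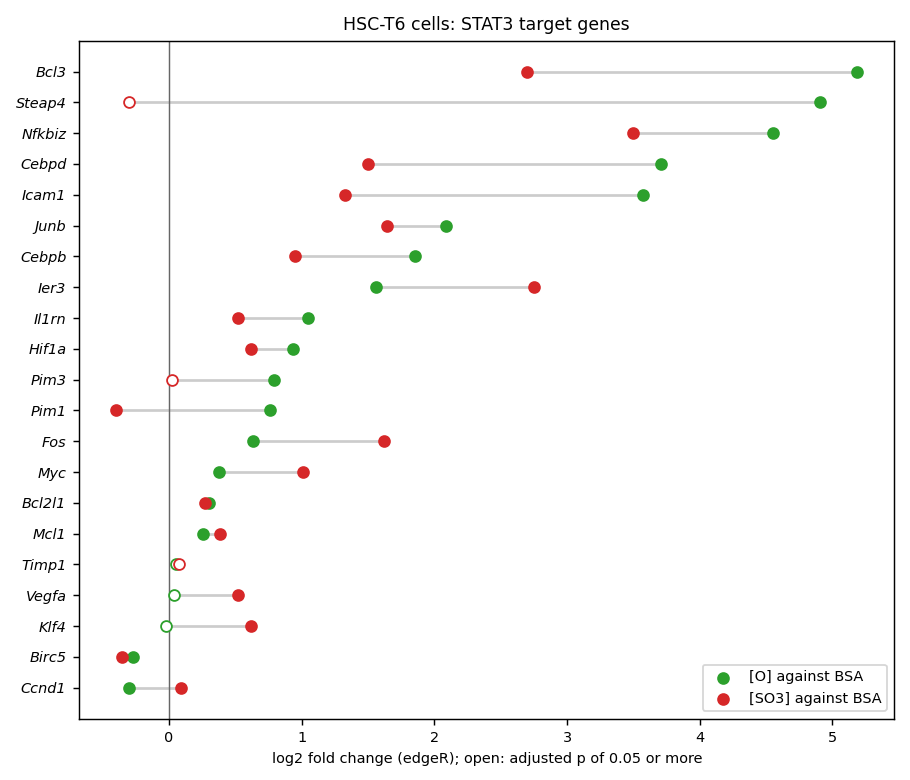
Log2 fold changes against BSA (x axis; edgeR) of the 21 tested STAT3 target genes in HSC-T6 cells (y axis), for [O] and [SO3] HMGB1, with open points for genes that did not pass. Bcl3, Steap4, Nfkbiz, Cebpd and Icam1 lie further right with [O], Ier3, Fos and Myc with [SO3], and Steap4 is at 4.90 with [O] and -0.30 with [SO3].

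Acute phase genes are mostly hepatocyte genes, and 6 of 25 were tested in the cells. With [O], 3 were higher and 1 lower (all genes 23.7% and 20.2%), and with [SO3], 0 were higher and 2 lower (31.1% and 32.2%). Lcn2, lipocalin 2, had 0.0473 ± 0.0820 CPM with BSA, 17.3 ± 0.463 CPM with [O] and 0.0602 ± 0.0619 CPM with [SO3] (SD, n = 3 each), and edgeR called it higher with [O]. Since BSA had 2 counts in all, the ratio of summed counts, 337, has a 95% counting interval of 92.9 to 2785. Lbp, lipopolysaccharide-binding protein, rose by 2.62 and Cp, ceruloplasmin, by 1.55 with [O], while Cp changed by -0.25 with [SO3]. Cd14, a lipopolysaccharide co-receptor, changed by -0.57 with [O] and -0.64 with [SO3].

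In whole liver the picture was different. Il6, Il11 and Osm were barely detected: Il6 had 0 to 7 counts, Il11 0 to 8 counts and Osm 0 to 14 counts in any liver library. They did not pass the low-count filter and were not tested. Il11 had 0 counts in all 3 resolution livers with [SO3] HMGB1, which allows up to 0.0998 CPM over the group. In whole liver, more or fewer cells of a type and more or less RNA per cell cannot be told apart.

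In the wild-type MO and CCl4 livers, CCl4 raised Lif, Clcf1 and Osmr, 3 of the 7 tested members, where 22.8% of all genes were higher. The 3 calls held in every alternative analysis that could be run (12, and 11 for Lif). Clcf1 stood at 0.658, 0.328 and 0.693 CPM with MO and 2.30, 3.46, 2.23 and 2.05 CPM with CCl4. The groups did not overlap, and the rise was 2.14 (log2, SE 0.32, adjusted p 2.7e-05). Osmr stood at 2.30, 3.50 and 5.31 CPM with MO and 8.73, 17.7, 10.7 and 7.02 CPM with CCl4, a rise of 1.58 (SE 0.33, adjusted p 0.00063). Lif stood at 0.0411, 0 and 0.0462 CPM with MO and 0.271, 0.471, 0.377 and 0.299 CPM with CCl4, which edgeR called higher (adjusted p 0.0068). MO had 2 Lif counts in all, so the ratio of summed counts, 15.9, has a 95% counting interval of 4.17 to 135. Beside these rises, all 8 stellate cell and myofibroblast markers and 5 of 7 neutrophil markers were higher, the stellate sum going from 69.6 to 128 CPM with MO to 386 to 831 CPM with CCl4, and the part of this in the members' rise was not tested. The macrophage marker sums overlapped, at 486 to 522 CPM with MO and 392 to 520 CPM with CCl4.

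The other 4 members did not pass in the wild-type livers. Il6ra stood at 105, 77.4 and 44.4 CPM with MO and 34.3 to 77.5 CPM with CCl4, and Il6st at 79.2 to 124 CPM and 125 to 153 CPM. Stat3 stood at 114 to 166 CPM and 108 to 139 CPM, a difference of -0.18 (95% interval -0.59 to 0.22). Socs3 stood at 10.98, 9.67 and 13.4 CPM with MO and 7.70, 9.31, 5.94 and 7.80 CPM with CCl4. Those groups did not overlap, yet the difference of -0.56 (95% interval -1.39 to 0.27, adjusted p 0.26) passed only when the fit held those groups alone (adjusted p 0.044).

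In Hmgb1ΔHepΔMye livers with WT HMGB1, CCl4 gave higher Lif and Osmr (2 of 7, background 23.3%) and lower Stat3 and Socs3 (2 of 7, background 24.0%). Lif stood at 0.154, 0 and 0.179 CPM with MO and 0.456, 1.17, 0.969 and 0.781 CPM with CCl4, and rose by 2.78 (log2, SE 0.63, adjusted p 0.0014). Osmr stood at 3.24, 4.26 and 6.64 CPM with MO and 8.57 to 11.2 CPM with CCl4, and rose by 1.05 (SE 0.32, adjusted p 0.010), a call lost without MO library 1 (adjusted p 0.065). Clcf1 stood at 2.08, 2.34 and 1.49 CPM with MO and 1.78 to 2.58 CPM with CCl4, and the difference was 0.15 (95% interval -0.42 to 0.72). In the same comparison all 8 stellate cell markers were higher, with sums of 103 to 157 CPM with MO and 1440 to 2098 CPM with CCl4, and 8 of 11 macrophage markers were higher, with sums of 293 to 476 CPM and 895 to 973 CPM. Of 7 neutrophil markers, 4 were lower and 1 higher, with sums of 56.6 to 79.7 CPM and 28.7 to 31.6 CPM, and the part of these markers in the members' changes was not tested.

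The calls of lower Stat3 and lower Socs3 in these livers were each lost in 6 of 12 alternatives. MO library 3 of this group stood apart, with Stat3 at 265 CPM against 145 and 154 CPM, Socs3 at 44.5 CPM against 12.6 and 24.2 CPM, Il6st at 162 CPM against 65.1 and 63.0 CPM, and Il6ra at 39.7 CPM against 13.4 and 14.6 CPM. The falls were -0.50 for Stat3 (SE 0.19, adjusted p 0.040) and -1.03 for Socs3 (SE 0.38, adjusted p 0.034). Without that library they were -0.17 (adjusted p 0.45) and -0.47 (adjusted p 0.32). Leaving out any 1 of the 4 CCl4 libraries also ended the Stat3 call, and leaving out MO library 2 or CCl4 library 1, 3 or 4 ended that of Socs3. Without MO library 3, Il6st rose by 1.16 (adjusted p 9.8e-06, against 0.57 and 0.051 with it) and Il6ra by 1.01 (adjusted p 0.017, against 0.32 and 0.48). Over all genes, 48.3% were called in either direction without that library. With all libraries, Il6st also passed with RLE size factors and with DESeq2.

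In Hmgb1ΔHepΔMye livers with Δ[O] HMGB1, CCl4 raised Lif, 1 of 7 members (background 12.9%). Lif stood at 0.0354, 0 and 0.0927 CPM with MO and 0.637, 0.818, 0.819 and 0.118 CPM with CCl4, which edgeR called higher (adjusted p 0.0020). MO had 4 Lif counts in all, and the ratio of summed counts, 15.6, has a 95% counting interval of 5.89 to 58.6. The fitted log2 difference was 3.62, 3.15 without MO library 2 and 4.76 without MO library 3, and the call held in all 12 alternatives. Of the 8 stellate cell markers 7 were higher, with sums of 109 to 169 CPM with MO and 520 to 1314 CPM with CCl4. Of 11 macrophage markers 3 were higher (280 to 451 CPM and 294 to 656 CPM) and of 7 neutrophil markers 0 were called (19.1 to 53.0 CPM and 23.2 to 37.1 CPM), and their part was not tested. Stat3 stood at 209, 160 and 215 CPM with MO and 128, 135, 119 and 191 CPM with CCl4, and Socs3 at 12.7, 9.20 and 30.3 CPM and 8.61, 7.24, 8.06 and 16.3 CPM. Their differences of -0.44 (adjusted p 0.10) and -0.80 (adjusted p 0.14) passed only without CCl4 library 5, at -0.61 (adjusted p 0.020) and -1.13 (adjusted p 0.040). Clcf1 was 0.44 (adjusted p 0.27), and 0.92 (adjusted p 0.032) without MO library 3.

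Δ[O] HMGB1 and WT HMGB1 were compared directly in the Hmgb1ΔHepΔMye livers. With CCl4, edgeR called 0 of 7 members, where 2.31% of all genes were called, and 1 member, Osmr, had an unadjusted p under 0.05. DESeq2 called 0. Osmr stood at 5.12, 7.44, 4.94 and 6.23 CPM with Δ[O] HMGB1, below the 8.57 to 11.2 CPM with WT HMGB1. Stellate cell marker sums with CCl4 did not overlap either (520 to 1314 CPM with Δ[O] and 1440 to 2098 CPM with WT HMGB1). Nor did macrophage sums (294 to 656 and 895 to 973 CPM), while neutrophil sums overlapped (23.2 to 37.1 and 28.7 to 31.6 CPM). The part of these markers in the Osmr gap was not tested. With MO, edgeR called 0 members and 0% of all genes, with 0 members and 1549 genes at an unadjusted p under 0.05, and DESeq2 called 0 members and 20 genes. Without MO library 3 of the WT HMGB1 group, Il6st (0.94, adjusted p 0.0028) and Il6ra (1.27, adjusted p 0.039) were higher with Δ[O] HMGB1. Over all genes, 5.76% were then called in either direction. The difference between the CCl4 responses of these 2 groups gave 0 members and 0% of genes with edgeR, 0 members and 2098 genes at an unadjusted p under 0.05, and 0 members and 65 genes with DESeq2. Without that same library it was -1.16 for Il6st (adjusted p 0.0066) and -1.44 for Il6ra (adjusted p 0.046), where 7.83% of all genes were called.

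Against wild-type livers, the Hmgb1ΔHepΔMye livers with WT HMGB1 already differed under MO. Clcf1 and Socs3 were higher (2 of 7, background 12.7%) and Il6ra lower (1 of 7, background 11.5%). Clcf1, at 1.49 to 2.34 CPM against 0.328 to 0.693 CPM, was higher by 1.78 (log2, SE 0.34, adjusted p 0.00075). Il6ra, at 13.4, 14.6 and 39.7 CPM against 105, 77.4 and 44.4 CPM, differed by -1.73 (SE 0.39, adjusted p 0.0031). That call was lost with only these groups in the fit (adjusted p 0.054), and the difference was -2.43 without library 3 of the Hmgb1ΔHepΔMye group and -1.42 without wild-type library 1. Socs3 differed by 1.26 (SE 0.42, adjusted p 0.037), a call lost in 7 of 11 alternatives. It was lost without any 1 of the 3 wild-type libraries (adjusted p up to 0.12), without library 2 of the other group (0.058), and without its library 3 (0.70, adjusted p 0.23). Il6st, -0.14 with all libraries, was -0.74 (adjusted p 0.0017) without library 3, where 24.3% of all genes were called in either direction. Neutrophil markers summed to 56.6 to 79.7 CPM in these livers against 11.3 to 15.2 CPM in the wild type, with 6 of 7 tested higher, and their part in the members' differences was not tested.

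With CCl4, Il6ra was lower in the Hmgb1ΔHepΔMye livers with WT HMGB1 than in the wild type (1 of 7, background 13.0%), at 21.9, 27.6, 31.4 and 32.3 CPM against 40.4, 34.3, 63.2 and 77.5 CPM. The groups did not overlap, and the difference was -0.93 (log2, SE 0.33, adjusted p 0.040), a call lost in 7 of 13 alternatives. These included leaving out wild-type library 3 (adjusted p 0.091) or 4 (0.12), or any 1 library of the other group (0.060 to 0.098). Stellate cell markers summed to 1440 to 2098 CPM in the Hmgb1ΔHepΔMye livers and 386 to 831 CPM in the wild type. Macrophage markers summed to 895 to 973 and 392 to 520 CPM, and neutrophil sums overlapped (28.7 to 31.6 and 19.7 to 35.7 CPM). The part of these markers in the members' differences was not tested. Lif was 1.24 higher (adjusted p 0.058), and passed with the replicate block (0.037), with only these groups in the fit (0.022) or without library 1 of the Hmgb1ΔHepΔMye group (0.041). Socs3, at 11.6 to 15.9 CPM against 5.94 to 9.31 CPM in the wild type, was 0.79 higher (adjusted p 0.11). Its groups did not overlap, and it passed only with these groups alone in the fit (adjusted p 0.0059). The CCl4 responses of the 2 groups differed in 1 member, Clcf1 (background 6.64% lower). Its rise in the wild type exceeded that in the other livers by a difference of -1.99 (log2, SE 0.42, adjusted p 0.0042), and this held in all 19 alternatives. The levels with CCl4 overlapped, and the MO levels did not. Without MO library 3, Il6st (0.81, adjusted p 0.0072) and Il6ra (1.502, adjusted p 0.021) also differed between the responses, where 17.4% of all genes were called in either direction.

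**Figure D4:**
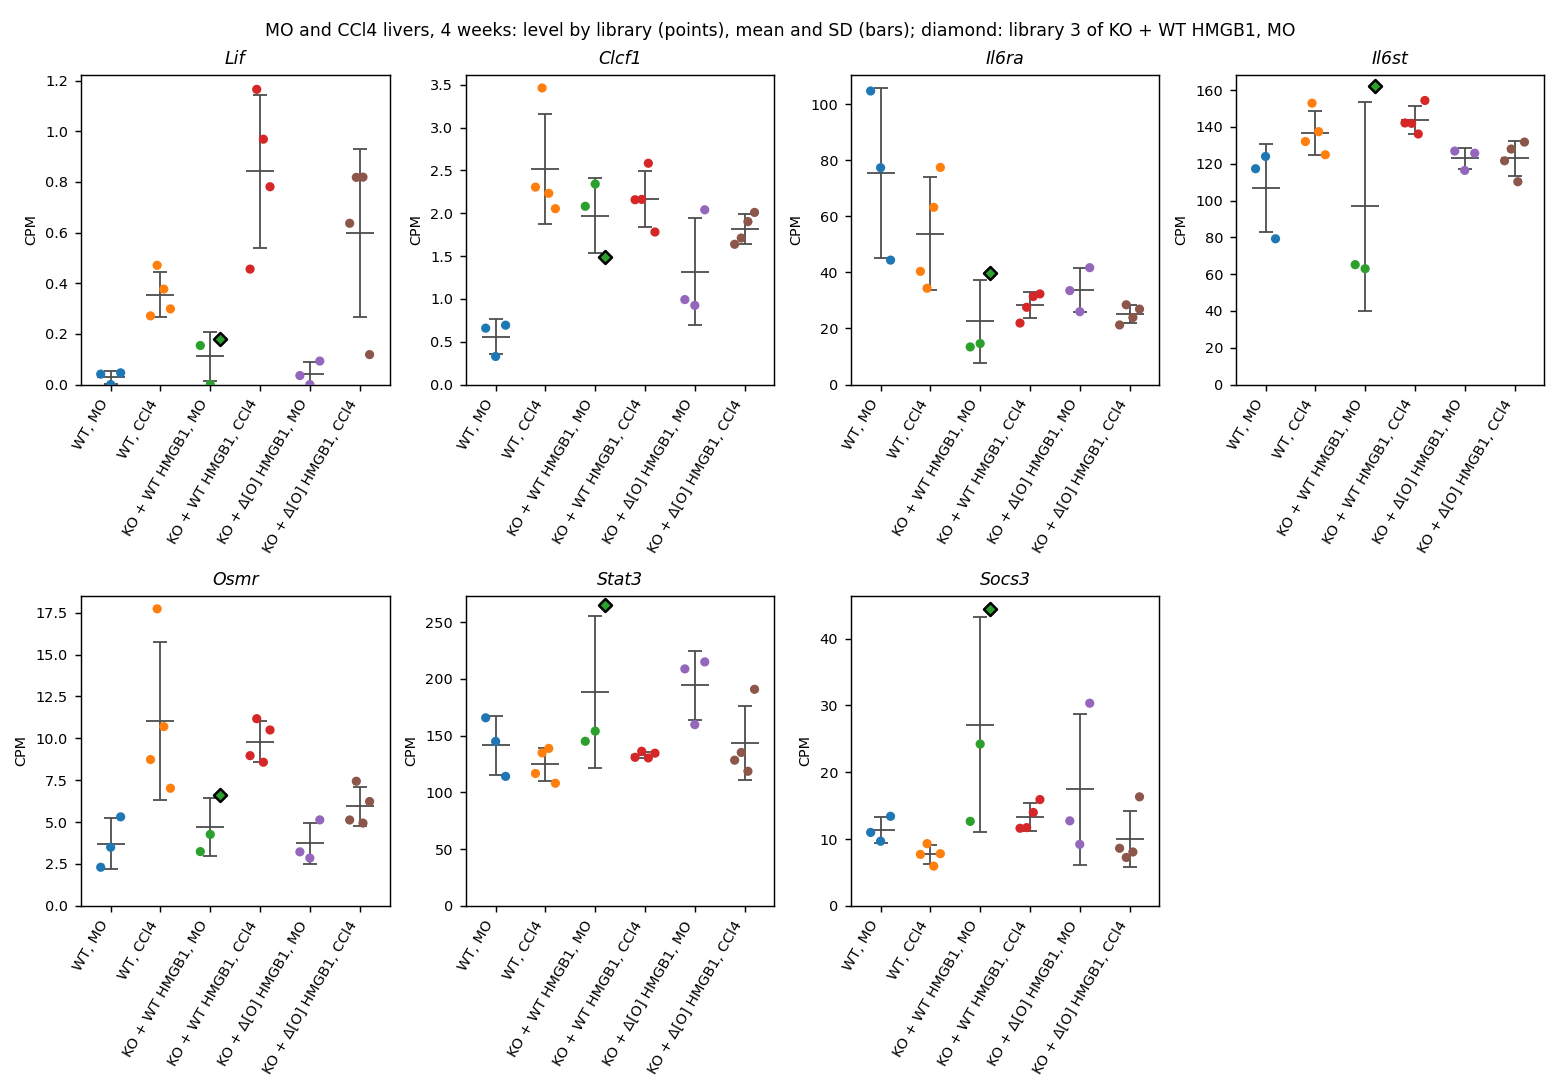
Levels of the 7 tested members in the MO and CCl4 livers in CPM (y axis, linear, from 0), with 3 or 4 libraries a group as points and bars for mean and SD. KO stands for Hmgb1ΔHepΔMye, and diamonds mark MO library 3 with WT HMGB1, which has the highest Stat3 (265 CPM) and Socs3 (44.5 CPM) of all. Lif and Osmr are higher with CCl4 than with MO in the wild type, and Clcf1 is lowest in the wild type with MO.

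Of the 24 STAT3 targets, all tested in these livers, 9 were higher and 3 lower with CCl4 in the wild type, 10 and 3 in the Hmgb1ΔHepΔMye livers with WT HMGB1, and 4 and 0 with Δ[O] HMGB1. Over all genes, 22.8%, 23.3% and 12.9% were higher and 23.5%, 24.0% and 11.4% lower, in that order. Without MO library 3 the WT HMGB1 counts of targets were 11 higher and 3 lower. Those that rose in the wild type include Ccnd1 (cyclin D1), by 3.68 on the log2 scale, Klf4 by 2.51, Timp1 (a metalloprotease inhibitor) by 2.34 and Il1rn (the IL-1 receptor antagonist) by 2.28. With WT HMGB1, Birc5 (survivin, a cell division gene) rose by 3.59, Timp1 by 2.34 and Tnfaip3 by 1.55, while Fos changed by -2.86. With Δ[O] HMGB1, Birc5 rose by 3.54, Myc by 2.33 and Klf4 by 1.16. Differences in these counts between groups were not tested.

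Of 24 acute phase genes tested with CCl4, 2 were higher and 5 lower in the wild type, 1 and 10 with WT HMGB1, and 0 and 2 with Δ[O] HMGB1. Lower genes made up 23.5%, 24.0% and 11.4% of all genes in these comparisons, so the wild-type and Δ[O] counts lay below the share over all genes. Orm3 changed by -2.31, -3.11 and -2.53 in that order, and Saa4 by -2.74 in the wild type. Saa1, Saa2 and Lbp changed by -1.76, -2.27 and -1.44 with WT HMGB1. Without MO library 3 of that group its counts were 3 higher and 6 lower. Hepatocyte markers were lower for 4 of 6 genes in the wild type, 3 of 6 with WT HMGB1 and 1 of 6 with Δ[O] HMGB1, and their part in these changes was not tested.

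Among kinases, STATs and regulators, 4 were higher and 4 lower of 24 with CCl4 in the wild type, 7 and 5 with WT HMGB1, and 0 and 2 with Δ[O] HMGB1, against the same shares over all genes. Without MO library 3 the WT HMGB1 counts were 8 higher and 2 lower. Socs2, a feedback inhibitor of growth hormone signalling, changed by -3.02 and Cish by -2.81 in the wild type. Of the other family genes, 8 were tested. Lifr changed by -1.36 in the wild type and -0.80 with Δ[O] HMGB1. Ctf1, cardiotrophin 1, changed by -0.43 in the wild type and -0.88 with WT HMGB1.

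In the fibrosis livers, no treatment moved a member past the test. edgeR called 0 of 7 members and 0% of all genes for [H] against BSA, for [O] against BSA and for [O] against [H]. No member had an unadjusted p under 0.05 in any of them, and 1447, 726 and 1412 genes did. DESeq2 called 0 members in each, and 8, 5 and 278 genes. Library 2 of the BSA group stood apart. Socs3 was at 83.1 CPM there against 12.9 and 18.2 CPM in the other BSA livers, Stat3 at 771 against 164 and 250 CPM, and Clcf1 at 16.6 against 2.26 and 3.05 CPM. Il6ra was at 146 against 53.2 and 84.1 CPM, Il6st at 383 against 210 and 195 CPM, and Osmr at 40.6 against 15.2 and 13.1 CPM. Its neutrophil markers summed to 213 CPM against 57.5 and 87.0 CPM, its macrophage markers to 1834 CPM against 888 and 1121 CPM, and its STAT3 targets to 5675 CPM against 2732 and 2301 CPM, and their part was not tested.

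With [H] HMGB1, Socs3 stood at 11.7, 25.6 and 28.8 CPM and Stat3 at 198, 316 and 344 CPM. With [O] HMGB1, Socs3 stood at 10.1, 47.3 and 23.4 CPM and Stat3 at 226, 274 and 233 CPM. All of these lie below the BSA library that stood apart, and for Socs3 they lie on both sides of the other BSA livers. Against BSA, Socs3 was -0.78 (95% interval -2.29 to 0.72) with [H] and -0.49 (-1.99 to 1.00) with [O]. Without BSA library 2 these became 0.49 and 0.79. Stat3 was -0.47 (-1.33 to 0.40) with [H] and -0.69 (-1.56 to 0.17) with [O], and 0.45 and 0.24 without that library. Clcf1 was at 3.52, 8.30 and 2.48 CPM with [H] and 2.49, 6.54 and 5.90 CPM with [O].

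In the resolution livers the result was again 0 of 7 members and 0% of all genes for [SO3] HMGB1 and for the HMGB1 antibody against BSA. No member had an unadjusted p under 0.05, and 812 and 279 genes did. DESeq2 called 0 members in each, and 79 and 7 genes. Socs3 stood at 9.17, 6.05 and 16.8 CPM with BSA, 23.0, 13.1 and 35.0 CPM with [SO3], and 13.6, 19.3 and 48.6 CPM with the antibody. The groups overlapped, and the differences were 1.17 (95% interval -0.38 to 2.71) and 1.36 (-0.19 to 2.91). Stat3 stood at 184, 192 and 179 CPM with BSA and 325, 248 and 302 CPM with [SO3], which did not overlap, and 254, 178 and 320 CPM with the antibody. Its differences were 0.66 (-0.21 to 1.52) and 0.44 (-0.42 to 1.30).

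Between the stages, Clcf1 was lower in the resolution than in the fibrosis livers with BSA (1 of 7, background 6.61%). It stood at 2.12, 1.01 and 0.753 CPM against 2.26, 16.6 and 3.05 CPM, a difference of -2.44 (log2, SE 0.72, adjusted p 0.047). The call was lost in 6 of 11 alternatives, with -0.98 (adjusted p 0.34) without fibrosis library 2 and adjusted p 0.093, 0.15 and 0.14 without resolution libraries 1, 2 and 3. Of the cell type markers, 4 of 4 for mesothelium, 3 of 8 for stellate cells, 5 of 11 for macrophages and 3 of 5 for cholangiocytes were also lower. Without fibrosis library 2 these were 4 of 4, 4 of 8, 2 of 11 and 2 of 5. Stellate markers summed to 492 to 1621 CPM in fibrosis and 269 to 401 CPM in resolution, and mesothelial markers to 22.8 to 92.4 CPM and 4.58 to 9.58 CPM. Of 7 neutrophil markers 0 were called, with a median log2 difference of -2.14, and the part of all these markers was not tested. Lif stood at 0.137, 0.0776 and 0.125 CPM against 0.399, 1.91 and 0.870 CPM, which did not overlap, and its difference was -3.08 (adjusted p 0.063). It passed without fibrosis library 1 (-3.49, adjusted p 0.035). Stat3 was -1.10 (adjusted p 0.091) and Socs3 -1.84 (adjusted p 0.11). Without fibrosis library 1 they were -1.46 (adjusted p 0.019) and -2.26 (adjusted p 0.049), and without library 2 they were -0.16 and -0.56. Of the STAT3 targets, 7 of 24 were lower and 0 higher, led by Fos (-5.39), Il1rn (-4.38), Ier3 (-4.32) and Myc (-3.16), and 2 of 24 were lower without fibrosis library 2. Acute phase genes were lower for 4 of 24, among them Lcn2 (-3.27) and Saa3 (-2.64), and for 1 of 25 without that library. Over all genes, 9.02% were called in either direction with fibrosis library 2 and 4.64% without it.

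**Figure D5:**
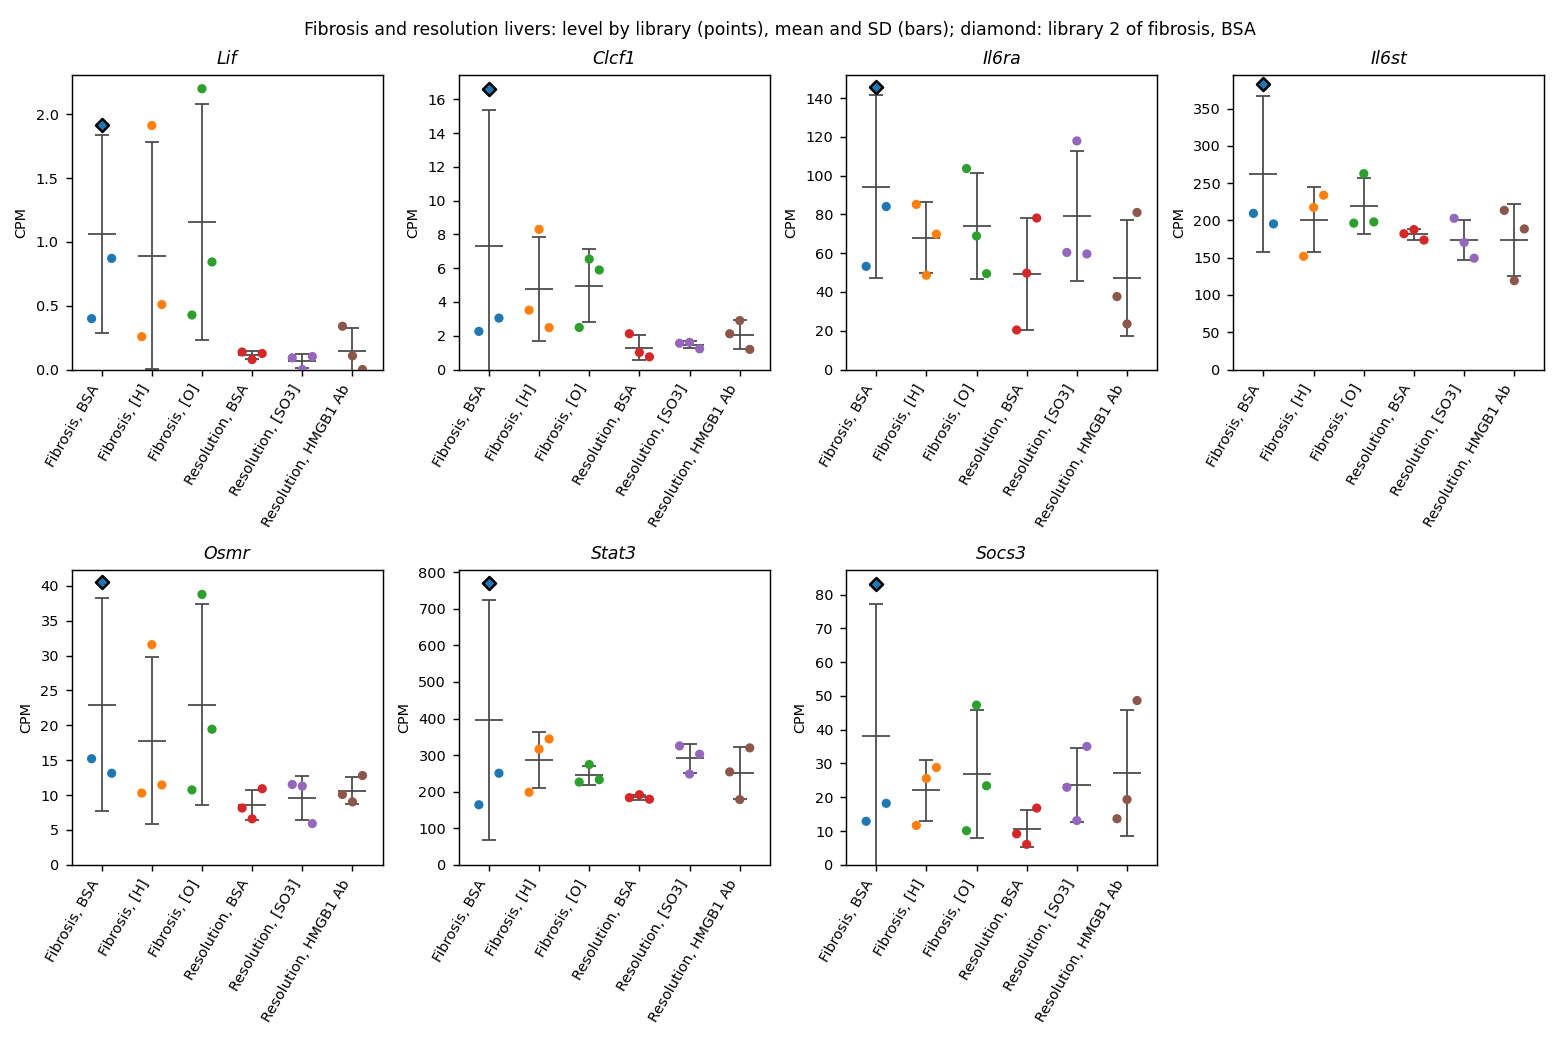
Levels of the 7 tested members in the fibrosis and resolution livers in CPM (y axis, linear, from 0), with 3 libraries a group as points and bars for mean and SD. Diamonds mark library 2 of the fibrosis BSA group, which is the highest of all 18 libraries for Clcf1, Il6ra, Il6st, Osmr, Stat3 and Socs3, with Stat3 at 771 CPM.

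Across the 18 fibrosis and resolution livers, the log2 level of Socs3 had a Pearson r of 0.79 with Stat3 and 0.63 with Osmr, and across the 21 MO and CCl4 livers 0.72 with Stat3 and -0.13 with Osmr. These are descriptions over libraries that share groups, and each set includes its library that stood apart. The genes most like Socs3 in the former were Cxcl1, a neutrophil chemokine (r = 0.905), Tnfrsf1a, a TNF receptor (0.903), Il13ra1 (0.874), Malt1 (0.847) and Klrb1b (0.844). In the latter they were Stat5a (0.878), Ssh3 (0.827), Tnip2 (0.822), Rfx5 (0.817) and Fga, fibrinogen alpha (0.812).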

How the data were processed

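TruSeq stranded mRNA libraries of HSC-T6 cells and whole mouse livers were sequenced, per the labels' protocols. The authors deposited raw counts per gene (whole numbers, with differing totals) in 3 tables, holding 12, 18 and 21 libraries. Per the submitters' processing notes the build is mm10, for the rat libraries too. Aligner, counter, annotation and strandedness of the counting were not given in the sources used here, so antisense overlaps are uncertain. Rows for reads with no gene or several were left out of totals and tests, and all 51 columns were matched to samples.

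Each table was fitted alone with edgeR 4.0.16 in R 4.3.3: filterByExpr (minimum count 10, minimum total 15) kept 10140, 13487 and 14129 genes, TMM factors scaled the counts, and 1 robust quasi-likelihood model held all groups of a table. Calls needed an adjusted p (Benjamini-Hochberg, over all genes of a comparison) under 0.05, in 21 comparisons. CPM are counts scaled by TMM-adjusted library totals, and SE is that of the log2 fold change. The log2 levels behind correlations had a prior count of 2. The test was tested on simulated data. Floors (3 counts over a group) and counting intervals (exact conditional binomial, 95%, chosen after the counts were seen) cover counting error only. The members and gene lists were chosen with earlier results of these data known. From each list up to 4 called genes with the largest log2 change were eligible to be named, for each comparison described, and a few other list genes named in captions were chosen after their values were seen. The 10 members and the 5 genes most like Socs3 (in the cells also Il6) are always named. Alternatives were DESeq2 1.42.0, RLE size factors, no low-count filter, only the compared groups, a replicate block and leaving out each library. No 2 libraries of a group held identical counts, and every within-group pair differed by more than sampling noise (chi-square over its degrees of freedom at least 1.47). Promoter sequences and positions are RefSeq's, GRCm38.p6. Some genes of the lists are counted in them but not reported by name here.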

Additional observations from a re-analysis of the deposited data

Results flagged for a closer look

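The rise of Clcf1 with CCl4 differed between wild-type livers and Hmgb1ΔHepΔMye livers with WT HMGB1, by -1.99 on the log2 scale (SE 0.42, edgeR adjusted p 0.0042). It is given here because the test of the difference itself passed. In the wild type the 4 CCl4 livers (2.05 to 3.46 CPM) all lay above the 3 MO livers (0.328 to 0.693 CPM). In the other livers the CCl4 libraries (1.78 to 2.58 CPM) overlapped the MO libraries (1.49 to 2.34 CPM).

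In the 4 CCl4 livers of Hmgb1ΔHepΔMye mice with Δ[O] HMGB1, a library lay far from the others for 2 members, not the same library for both. Socs3 was at 16.3 CPM in its highest library and at most 8.61 CPM in the rest. Osm was at 0.0910 CPM (3 counts) in its lowest library and at least 0.197 CPM in the rest. Such a gap was looked for in 30 member-and-group combinations of 4 libraries and found in these 2, and chance gives it in about 1 of 20 such groups.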

How the results depend on the processing

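Of the 50 member calls, 42 kept call and direction in every alternative run, and none of the 50 changed direction. Of the 109 tests of members that did not pass, 88 passed in no alternative, and in 41 the sign turned in at least 1. The number of members called for [H] against BSA in the cells was 0, and 1 both with no low-count filter and with only the compared groups. For resolution against fibrosis with BSA it was 1, and 0 with no filter, 2 with the replicate block, 5 with DESeq2, 0 with only the compared groups and 0 to 4 leaving out 1 library. For Hmgb1ΔHepΔMye livers with WT HMGB1 against the wild type it was 1 with CCl4, and 0 with no filter, 2 with the replicate block, 3 with only the compared groups and 0 to 1 leaving out 1 library, and it was 3 with MO, and 1 with only the compared groups. Leaving out 1 library gave 2 to 4 members for CCl4 against MO with WT HMGB1 and 1 to 3 with Δ[O] HMGB1, 0 to 2 for Δ[O] against WT HMGB1 with MO and for the difference of their responses, and 1 to 3 for the difference between WT HMGB1 and the wild type. Recomputed one by one were the folds of called members, of members whose call changed, of all members in the cells, and the other folds printed in the report. Those that turned sign follow, none of them called. For [H] against BSA in the cells, Clcf1 was 0.0013 with RLE size factors, 0.0042 with no filter, 0.000604 with the replicate block, 0.00291 with DESeq2 and -0.058 to 0.089 leaving out 1 library. Il6st was 0.00326 with RLE size factors, 0.00608 with no filter, 0.00317 with DESeq2 and -0.012 to 0.015, and Stat3 -0.0075 to 0.024. Il11 ranged from -0.23 to 0.066 for [O] against BSA and from -0.26 to 0.010 for [SO3] against [H]. In the fibrosis livers Stat3 ranged from -0.83 to 0.45 and Socs3 from -1.19 to 0.49 for [H] against BSA, Stat3 from -1.06 to 0.24 and Socs3 from -1.17 to 0.79 for [O] against BSA, and Socs3 from -0.37 to 0.69 for [O] against [H]. For CCl4 against MO with WT HMGB1, Clcf1 ranged from -0.026 (without MO library 3) to 0.29. Il6st ranged from -0.74 to 0.092 for WT HMGB1 against the wild type with MO and from -0.022 to 0.81 for the difference of their CCl4 responses. The cause of these changes was not tested beyond the library left out. Whether replicate numbers pair the samples was not settled. Same-numbered libraries of different groups had a median correlation of deviations of -0.01, 0.04 and 0.04 in the 3 tables. It was over 0.1 in 0 of 18, 14 of 45 and 17 of 42 pairs. For differently numbered libraries it was over 0.1 in 3 of 36, 21 of 90 and 27 of 141 pairs. Library 2 was the highest of each fibrosis group for Lif, Clcf1 and Osmr, but not for Il6ra, Il6st, Stat3 or Socs3. The replicate block changed no other count of members by over 1.5 times. Counts of list genes without the libraries that stood apart were added after seeing the data. Depth limits Il6, Il11 and Osm in liver and Osm in the cells, which had too few counts to test.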
